A study of Mus musculus with 42 samples.

Results

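The genes described here encode 10 neuropeptide precursors of sensory neurons: Grp, Vip, Nmb, Gal, Penk, Npy, Cartpt, Sst, Nts and Cck. They were chosen by name, and every probe set annotated to exactly 1 of these symbols was taken. Across both array types the annotation named 18337 genes in this way. Mouse430_2 arrays held 10 such probe sets, 1 for each of the 10 genes. MG-U74Av2 arrays also held 10, for 7 of the genes, with 2 probe sets for Gal and 3 for Penk and none for Grp, Cartpt or Nts.

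The samples were sensory ganglia of untreated BALB/c mice kept in ordinary housing; neither age nor genetic change is given in the labels. Nodose ganglion (NG), which holds the cell bodies of vagal afferents, was set against dorsal root ganglion (DRG), which holds those of spinal afferents, in 3 experiments. About 150 neurons per sample, which the submitters call visceral sensory neurons, were taken by laser capture microdissection and read on Mouse430_2 arrays (NG n = 11, DRG n = 9) or on MG-U74Av2 arrays (NG n = 5, DRG n = 5), and whole ganglia were read on MG-U74Av2 arrays (NG n = 7, DRG n = 5). The sources used here do not give how the captured cells were recognised as visceral or from which spinal level the DRG came. Separate animals are not named in the labels, so p-values here cover only sample-to-sample spread, part or all of which may be technical. In such samples, fewer cells of a type and less RNA per cell cannot be told apart.

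A neuropeptide is made as a longer precursor, cut by convertases in the secretory pathway, often amidated, and stored in dense core granules until strong activity releases it. The released peptide acts on G protein-coupled receptors of nearby neurons, glia, vessels, muscle or immune cells. Sensory neurons of both ganglia use such peptides at their central endings in the brainstem or spinal cord and at their peripheral endings in the organs, and some of these genes are known to rise after a nerve is cut.

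Values below are array signals, in arbitrary units, after each array was brought to the same trimmed mean. A difference is the log2 of NG over DRG after a small constant was added to each signal, so it understates the difference of dim genes. Calls were made with limma at an adjusted p under 0.05, over all probe sets that passed a filter on low signal, set at the 40th percentile of each array. The 10 neuronal markers examined, from Snap25 to Prph, gave a high signal in captured neurons on Mouse430_2, where their sum was 26800 to 36000 in NG and 28320 to 40310 in DRG. Glial markers were bright as well, which the capture label alone would not show. The summed signal of 11 satellite glia and Schwann cell markers was 10730 to 13370 in captured NG and 13610 to 15970 in captured DRG on Mouse430_2, without overlap. As a measure of RNA length, the log2 ratio of the 3 prime to the 5 prime beta actin control was 4.88 to 6.15 on captured NG arrays and 5.08 to 5.95 on captured DRG arrays of that type.

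On Mouse430_2, captured NG neurons held far more Grp and Vip transcript than captured DRG neurons, and captured DRG neurons held more Nmb and Gal. Of the 10 genes, 8 passed the filter, and 2 of these were called higher and 2 lower in NG. Over all 13973 genes tested there, 26.6% were called (13% higher and 13.6% lower in NG), and for 5.01% the groups did not overlap. So few genes passed that no count is read as particular to them. Grp and Vip passed the filter through the group in which they were bright: Grp lay above that percentile on 11 of 11 NG and 0 of 9 DRG arrays, and Vip on 11 of 11 NG and 7 of 9 DRG arrays.

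Grp encodes gastrin-releasing peptide, a bombesin-like peptide known for releasing gastrin in the stomach and for carrying itch signals in the spinal cord. Its signal in captured NG neurons was 135 at the lowest, 591 at the median and 1244 at the highest, against 3.34, 5.075 and 18.9 in captured DRG neurons. Every NG array was brighter than every DRG array, and the DRG values lay at the dim end of the array. No DRG array lay above its 40th percentile, so the DRG side gives only a bound: set against that percentile of each DRG array, Grp was at least 22-fold higher in NG. The fitted log2 difference was 5.26 (SE 0.29, adjusted p = 2.14e-13), and 4.26 (adjusted p = 1.14e-12) with a larger added constant, at the 40th percentile of all values, so its size depends on that constant. The NG arrays themselves spread widely, with 1244 in sample 012, 1098 in sample 005 and 135 in sample 007.

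Vip encodes vasoactive intestinal peptide, which relaxes smooth muscle, widens vessels and acts on immune cells through its receptors Vipr1 and Vipr2. Captured NG neurons had a lowest signal of 86.2, a median of 211 and a highest of 652, against 22.2, 26.75 and 46.4 in captured DRG neurons. The groups did not overlap. Vip was 6.603-fold higher in NG, a log2 difference of 2.72 (SE 0.26, adjusted p = 7.75e-09). Its brightest NG sample, 013, was not the brightest for Grp, and sample 012, brightest for Grp, had the lowest Vip signal of the NG samples.

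Nmb encodes neuromedin B, the other bombesin-like peptide of mammals, which acts on Nmbr and takes part in itch and in smooth muscle contraction. Its signal was 82.8, 146 and 199 at the lowest, median and highest of captured NG neurons, against 437, 545 and 585 in captured DRG neurons. No NG array reached the dimmest DRG array, and the 9 DRG arrays lay close together. Nmb was 3.595-fold lower in NG, a log2 difference of -1.85 (SE 0.15, adjusted p = 3.4e-10). Grp and Nmb, related peptides, thus lay on opposite sides of the ganglion difference in the same arrays.

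Gal encodes galanin, a peptide that inhibits neurons through Galr1 and is known to rise in sensory neurons after nerve injury. Captured NG neurons had 160.4, 217 and 341 at the lowest, median and highest, against 529, 759 and 951 in captured DRG neurons. These groups were also apart. The log2 difference was -1.68 (SE 0.16, adjusted p = 1.06e-08), which is 3.20-fold lower in NG. The glial marker sum given above was lower in captured NG as well. That of 13 endothelial and mural markers was 863.7 to 1574 in captured NG and 1570 to 3141 in captured DRG, ranges that barely overlap. Of the 10 such genes tested, 2 were called higher and 3 lower in captured NG. The sum of 13 macrophage and lymphocyte markers overlapped, at 729.4 to 1370 in captured NG and 660.6 to 1068 in captured DRG. Their part in the Nmb and Gal differences was not tested.

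**Figure D1:**
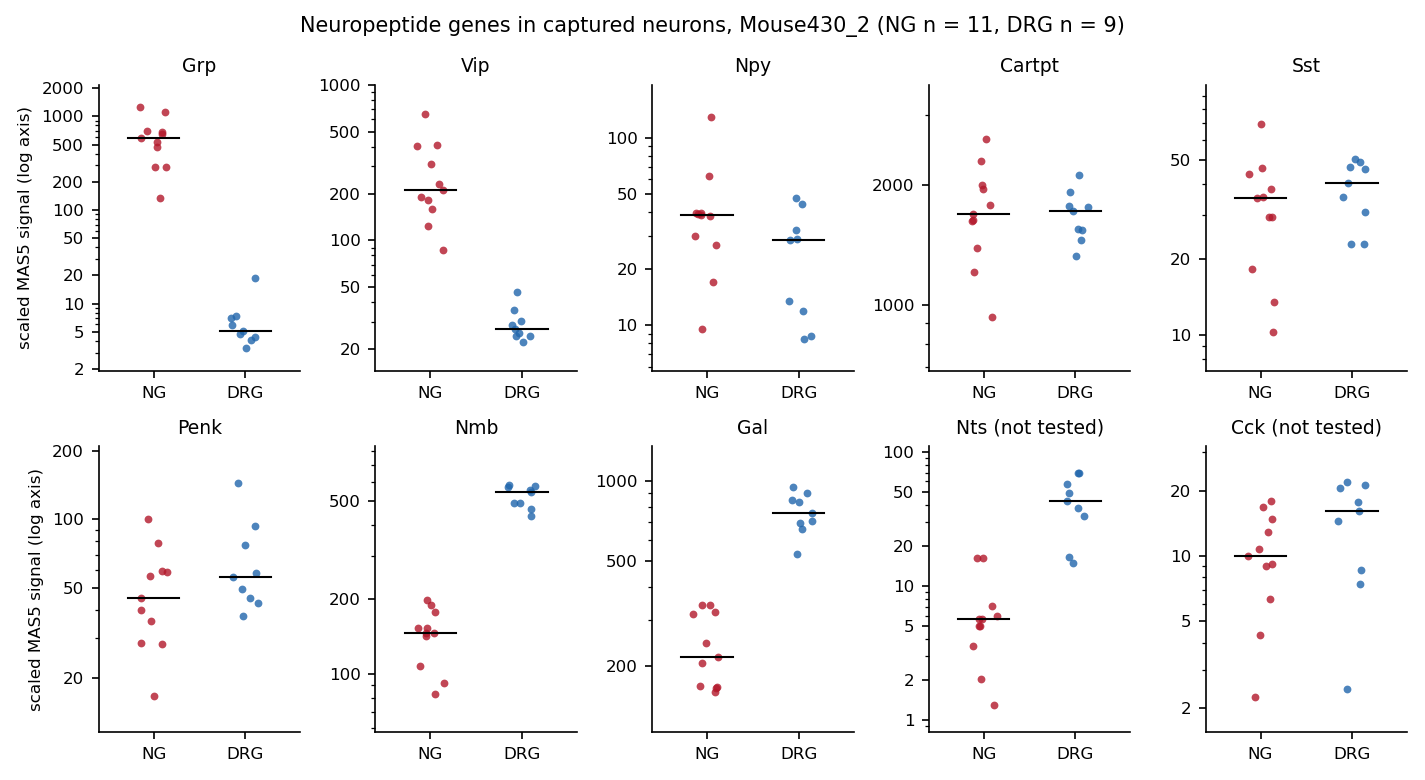
Scaled MAS5 signal (log axis) of the 10 neuropeptide genes on each Mouse430_2 array of captured neurons, NG (n = 11) left and DRG (n = 9) right, with 1 point per array and a bar at each median. All Grp and Vip points of NG lie above those of DRG, all Nmb and Gal points of NG lie below those of DRG, and the Cartpt points of both ganglia share 1 range.

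The stretch around the transcription start, 250 bases before it to 50 after, is shown for Vip, higher in captured NG neurons, and for Nmb and Gal, higher in captured DRG neurons. RefSeq promoter sequences of GRCm38.p6 were matched for 8 of the 10 genes, not for Grp or Penk. Capitals mark matches to motifs of peptide gene promoters that were searched by letters: the cyclic AMP response element (CRE, TGACGTCA) and its core TGACG, which lies within it, on both strands; the AP-1 site TGANTCA on both strands; and the TATA box TATAAA on the gene's strand. All are written 5′ to 3′ along the gene.
Vip, chr10:5638968-5639267, plus strand: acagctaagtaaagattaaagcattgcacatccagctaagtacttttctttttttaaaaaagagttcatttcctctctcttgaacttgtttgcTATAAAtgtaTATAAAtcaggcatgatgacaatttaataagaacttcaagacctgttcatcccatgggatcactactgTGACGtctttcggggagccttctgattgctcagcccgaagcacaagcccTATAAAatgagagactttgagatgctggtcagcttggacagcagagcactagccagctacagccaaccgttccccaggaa
Nmb, chr7:80905013-80905312, minus strand: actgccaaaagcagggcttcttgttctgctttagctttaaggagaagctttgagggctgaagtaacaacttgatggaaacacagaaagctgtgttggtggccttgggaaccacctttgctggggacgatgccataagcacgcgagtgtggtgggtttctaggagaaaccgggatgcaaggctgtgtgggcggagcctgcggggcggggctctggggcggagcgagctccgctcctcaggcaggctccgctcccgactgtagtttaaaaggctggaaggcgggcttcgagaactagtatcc
Gal, chr19:3414495-3414794, minus strand: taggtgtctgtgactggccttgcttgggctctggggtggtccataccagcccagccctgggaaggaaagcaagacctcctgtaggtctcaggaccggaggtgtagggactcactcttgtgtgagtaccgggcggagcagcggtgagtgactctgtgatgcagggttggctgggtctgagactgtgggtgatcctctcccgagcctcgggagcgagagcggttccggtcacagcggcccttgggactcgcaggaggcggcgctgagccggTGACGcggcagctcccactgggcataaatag

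Among all 32851 RefSeq promoters of this length, 1.79% held the full CRE, 20.8% its core, 7.81% the AP-1 site and 8.32% the TATA box. The Vip stretch held the core beginning at position -79 and TATA boxes at -157, -147 and -30, counted from the start site. Gal held the core beginning at +20, and Nmb held none of these letters. Of the genes whose stretch is not printed, Sst held the full CRE at -48 and Cartpt at -112, Cck held the core at -47, Nts held the core at -166 and an AP-1 site at -207, and Npy held none. Genes higher in NG and genes higher in DRG were too few to compare, and a match is only a run of letters.

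The other 4 genes tested on Mouse430_2 were not called, and all had overlapping groups. Cartpt encodes the CART peptide, known in vagal afferents as a satiety signal, and it was bright in both ganglia. Its signal was 935, 1697 and 2618 at the lowest, median and highest of captured NG neurons, against 1326, 1721 and 2123 in captured DRG neurons. The NG range enclosed the DRG range, and the log2 difference was 0.01 (SE 0.14, adjusted p = 0.982).

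Penk, the enkephalin precursor, whose peptides act on the opioid receptors Oprd1 and Oprm1, had 16.7, 45.2 and 100.3 in captured NG neurons against 37.7, 55.9 and 145 in captured DRG neurons (log2 difference -0.39, SE 0.25, adjusted p = 0.301). Sst, the precursor of the inhibitory peptide somatostatin, had 10.2, 35.1 and 69.8 in captured NG neurons against 22.96, 40.4 and 50.2 in captured DRG neurons (log2 difference -0.23, SE 0.23, adjusted p = 0.545). Npy encodes neuropeptide Y, a vasoconstrictor peptide of sympathetic neurons that injured sensory neurons also make. Its signal was 9.47, 38.5 and 129 in captured NG neurons against 8.455, 28.3 and 47.9 in captured DRG neurons (log2 difference 0.58, SE 0.31, adjusted p = 0.195). Most NG values of Npy lay inside the DRG range, and sample 014 stood above all others.

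Nts and Cck did not pass the filter on Mouse430_2. For Nts, 0 of 11 NG and 7 of 9 DRG arrays lay above the 40th percentile. Nts, the precursor of neurotensin, had 1.29, 5.70 and 16.1 in captured NG neurons against 14.8, 42.6 and 69.4 in captured DRG neurons, with overlap only between the 2 brightest NG arrays, samples 008 and 014, and the dimmest DRG array. Without the filter its log2 difference was -1.79 (SE 0.25, adjusted p = 5.38e-06). Cck, the precursor of cholecystokinin, a gut and brain peptide that signals fullness to vagal afferents, had 2.25, 9.99 and 17.9 in captured NG neurons against 2.44, 16.1 and 21.99 in captured DRG neurons, and without the filter its log2 difference was -0.28 (adjusted p = 0.499).

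Of the Mouse430_2 samples, 5 of NG and 5 of DRG carried a number that also occurs among captured samples on MG-U74Av2, so the array types may not be independent. With the 6 NG and 4 DRG samples whose numbers do not recur, all 4 calls held. The log2 difference was then 5.75 for Grp (adjusted p = 2.48e-08), 2.72 for Vip (adjusted p = 0.000187), -1.88 for Nmb (adjusted p = 7.89e-05) and -2.03 for Gal (adjusted p = 8.16e-06).

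The genes whose profile over the 20 Mouse430_2 arrays was most like that of Vip or Grp were found by the mean absolute difference of centred log2 signals among 13972 other genes. For Vip these were Fndc1 (0.455), C1ql3 (0.46) and Kcnh8 (0.463). C1ql3, a secreted synaptic organizer, averaged 213 ± 80.4 in captured NG neurons and 18.5 ± 7.72 in captured DRG neurons (SD, n = 11 and n = 9). Kcnh8, a voltage-gated potassium channel, averaged 391 ± 152 in captured NG neurons and 46.7 ± 14.3 in captured DRG neurons. For Grp the nearest were Ntsr1 (0.614), Ltk (0.691) and Cfap52 (0.726). Ltk, a receptor tyrosine kinase, averaged 1354 ± 171 in captured NG neurons and 14.9 ± 11.5 in captured DRG neurons. Profiles were centred over both ganglia, so genes with a ganglion difference of similar size were favoured. Likeness within a ganglion was not measured.

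Captured neurons on MG-U74Av2 gave a second reading of 7 of the genes, by other probe sets, so levels are not set across array types. Nmb, Gal, Npy and Penk passed the filter. Of these 4, 0 were called higher and 2 lower in NG, where 22.9% of the 5784 genes tested were called (11% higher and 11.9% lower in NG) and 17% did not overlap. Both lower ones, Nmb and Gal, had the same direction as on Mouse430_2.

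Nmb had signals of 169, 120.01, 128, 138 and 101 in the 5 captured NG samples, against 530.2, 509, 384, 390.1 and 354 in the 5 captured DRG samples. The groups did not overlap, and the log2 difference was -1.64 (SE 0.17, adjusted p = 7.52e-06). Gal had 334, 327, 230.3, 280.2 and 223 in captured NG samples, against 511, 520.2, 319, 498 and 535 in captured DRG samples. A single DRG array, sample 010 at 319, fell among the NG values. By this probe set Gal was lower in NG by a log2 difference of -0.75 (SE 0.18, adjusted p = 0.00721).

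The second Gal probe set did not pass the threshold, with a log2 difference of -0.22 (adjusted p = 0.527). With the mean of both, the Gal call was lost (-0.48, adjusted p = 0.0629). The glial marker sum was again lower in captured NG, at 12430 to 13580 against 14610 to 17040 in captured DRG, without overlap. The macrophage and lymphocyte sum was higher in captured NG, at 1020 to 1322 against 589.6 to 779.5 in captured DRG. Of the 6 such genes tested, 2 were called higher and 0 lower, with a median of 0.03, beside 0.05 over all genes. The endothelial and mural sum overlapped, at 722.1 to 1219 in captured NG and 1018 to 1405 in captured DRG. Of the 8 such genes tested, 1 was called higher and 3 lower (median -0.46), where 22.9% of all genes were called. The part of these cells in the Nmb and Gal differences was not tested.

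Npy and Penk varied more between captured NG samples than between captured DRG samples on this array type. Npy had 77.5, 21.5, 27.4, 30.1 and 147 in captured NG samples, against 58.9, 48.7, 62.1, 49.996 and 48.1 in captured DRG samples (log2 difference -0.12, SE 0.37, adjusted p = 0.846). The highest Npy value was again that of the NG sample numbered 014. Penk had 56.8, 84.7, 67.5, 245 and 179 in captured NG samples, against 104, 104.35, 85.2, 101 and 86.8 in captured DRG samples (log2 difference 0.17, SE 0.31, adjusted p = 0.747). Samples 008 and 014 were the 2 bright NG samples for Penk, and the other 3 NG samples lay below every DRG sample.

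Since sympathetic neurons also make Npy, a list of their markers was read beside it. On Mouse430_2, the summed signal of its 11 genes was 1715 to 2745 in captured NG and 904.8 to 1852 in captured DRG, and none was at 0. Chrna3, a nicotinic receptor subunit in this list, was at 679 to 1880 in captured NG and 247 to 745 in captured DRG, while the sum without it was 721 to 1201 in captured NG and 626 to 1145 in captured DRG. In NG sample 014, the brightest for Npy, the full sum was 2262. Chrna3 at 1309 and Th at 430.5 were each at the captured NG median. Dbh, the noradrenaline-making enzyme, was at 110.4, the highest of captured NG (39.18 to 110.4). Slc6a2, of the same list, was at 36.31, the lowest of captured NG (36.31 to 81.38). Of the rest of the list, Gata3 was dim at 13.69, the highest of captured NG (1.34 to 13.69). Slc18a2 at 59.93, Gata2 at 122.6 and Hand1 at 51.44 lay above captured NG medians of 35.69, 80.47 and 41.81. Pnmt at 76.59 and Hand2 at 14.31 lay near theirs, at 68.76 and 14.28. Cox4i2 at 37.89 lay below its median of 54.23. On MG-U74Av2, the sum was 1033 in NG sample 014, inside the captured NG range of 945 to 1493, against 1040 to 1661 in captured DRG. The part of such cells in the Npy signal was not tested.

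Vip, Sst and Cck were dim in captured neurons on MG-U74Av2 and were not tested. Vip had 21.8, 9.9998, 9.19, 7.70 and 10.9 in captured NG samples, against 27.9, 6.41, 4.28, 11.8 and 4.83 in captured DRG samples. These groups overlapped throughout, and this probe set did not show the NG excess that the Mouse430_2 probe set did; without the filter its log2 difference was 0.12 (adjusted p = 0.823). Sst was 8.77 to 24.4 in captured NG and 6.57 to 17.3 in captured DRG, and Cck was 1.60 to 3.85 in captured NG and 1.56 to 3.72 in captured DRG.

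In whole ganglia, 3 of the 7 genes passed the filter, and 1 was called higher and 1 lower in NG, where 37.5% of the 5897 genes tested were called (20.6% higher and 16.9% lower in NG) and 19.7% did not overlap. Nmb was lower in NG as in captured neurons. Whole NG had 119, 126 and 144.5 at the lowest, median and highest, against 414, 309.9, 384, 418 and 360.4 in the 5 whole DRG samples. The groups were far apart (log2 difference -1.47, SE 0.10, adjusted p = 1.05e-08).

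Penk was called higher in whole NG. Its brightest probe set read 194, 282 and 328 at the lowest, median and highest of whole NG, against 182, 184, 173, 151 and 127 in whole DRG. The groups came close but did not overlap (log2 difference 0.64, SE 0.15, adjusted p = 0.00228). A second Penk probe set gave 0.19 (adjusted p = 0.638), the third was dim, and the mean of the tested ones gave 0.42 (adjusted p = 0.0479). Without scaling the arrays the call was lost (0.29, adjusted p = 0.408). Sums of some markers of other cells were also higher in whole NG. That of 13 macrophage and lymphocyte markers was 1685 to 2509 in whole NG and 984.3 to 1585 in whole DRG, without overlap. That of 13 endothelial and mural markers was 1670 to 2812 in whole NG and 1228 to 1687 in whole DRG, ranges that barely overlap. Of the 12 such genes tested, 6 were called higher and 2 lower in whole NG, where 37.5% of all genes were called. The sum of 10 satellite glia and Schwann cell markers overlapped, at 16810 to 21160 in whole NG and 16160 to 20270 in whole DRG. Their part in the Penk difference was not tested.

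Gal did not differ between whole ganglia beyond the spread, at 184, 237 and 391 for the lowest, median and highest of whole NG, against 166 to 236.5 in whole DRG (log2 difference 0.28, SE 0.15, adjusted p = 0.169). Its second probe set gave 0.26 (adjusted p = 0.402). Npy was not tested: whole NG ran from 10.5 to 116, with samples 036 and 026 highest at 116 and 84.3, and whole DRG ran from 15.9 to 42.05. Vip ran from 22.4 to 56.7 in whole NG and from 8.30 to 26.02 in whole DRG, and it overlapped only in that the brightest DRG sample passed the dimmer NG samples. Without the filter Vip had a log2 difference of 0.81 (adjusted p = 0.0135). Sst ran from 6.92 to 14.6 in whole NG and from 12.5 to 51.1 in whole DRG, with a log2 difference without the filter of -1.05 (adjusted p = 0.00144). Cck ran from 1.08 to 4.18 in whole NG and from 1.79 to 4.04 in whole DRG, at the bottom of the array.

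**Figure D2:**
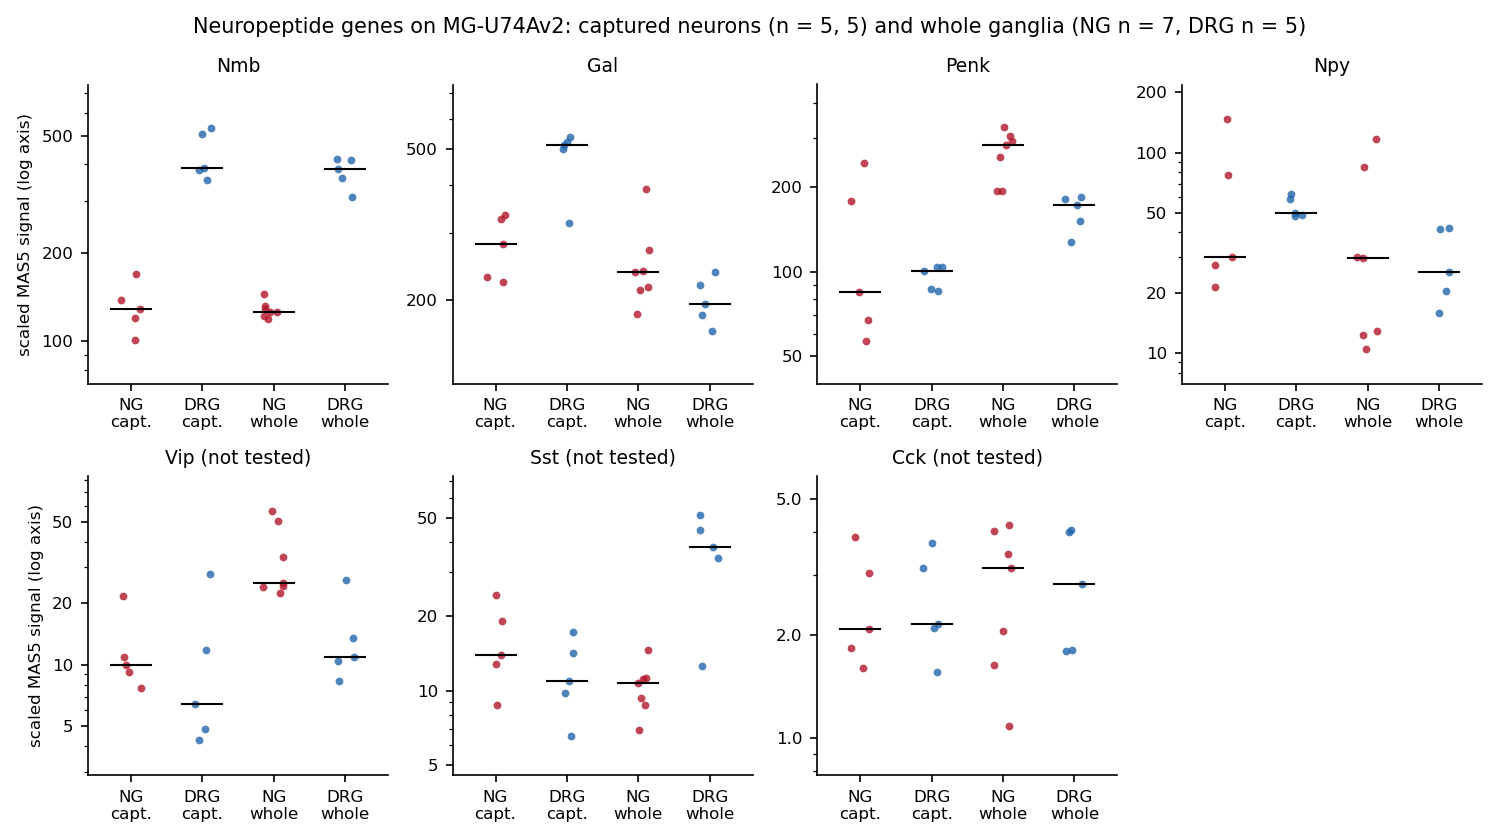
Scaled MAS5 signal (log axis) of the 7 neuropeptide genes on each MG-U74Av2 array, captured neurons (NG n = 5, DRG n = 5) to the left of whole ganglia (NG n = 7, DRG n = 5), with 1 point per array and a bar at each median. Nmb points of NG lie below those of DRG in captured and in whole samples, while 4 of the 5 captured DRG points of Gal, all but sample 010, lie above all other Gal points. The NG minus DRG difference of Npy was tested in captured neurons only.

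Captured neurons and whole ganglia of MG-U74Av2 were then fitted together, which sets capture against the whole organ in each ganglion. Capture went with RNA amplification on this array type, per the labelling protocol, and these cannot be told apart. The beta actin 3 prime over 5 prime ratio moved with it, at a log2 of 5.58 to 6.2 in captured NG and 5.28 to 5.66 in captured DRG, against 2.26 to 3.44 in whole NG and 2.68 to 2.89 in whole DRG, without overlap, and its part in the differences below was not tested. In NG, 0 of the 4 genes tested were called higher and 1 lower in captured neurons, where 56.3% of 6261 genes were called (26% higher and 30.3% lower when captured) and 29% did not overlap. In DRG, 1 of 4 was called higher and 1 lower, where 48.3% were called (22.9% higher and 25.4% lower when captured) and 38.4% did not overlap.

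Gal was the gene called higher in captured DRG, at 477 ± 89.2 against 199.6 ± 28.01 in whole DRG (SD, n = 5 each), a log2 difference of 1.197 (SE 0.17, adjusted p = 3.52e-06). In NG it averaged 279 ± 52.0 in captured neurons (SD, n = 5) and 249.8 ± 67.8 in whole ganglia (SD, n = 7), a log2 difference of 0.17 (SE 0.16, adjusted p = 0.387). The test of the difference between these changes gave -1.03 (SE 0.24, adjusted p = 0.00303), where 19.3% of genes were called and 11.1% had a negative call. With the mean of both Gal probe sets it was -0.75 (adjusted p = 0.0343), and without scaling it was -0.74 and the call was lost (adjusted p = 0.168). The second Gal probe set alone gave 0.51 for captured minus whole DRG, which was not called (limma, adjusted p = 0.077).

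Penk was lower in captured than in whole samples of each ganglion. In NG it averaged 127 ± 82.1 in captured neurons (SD, n = 5) and 264 ± 52.9 in whole ganglia (SD, n = 7), a log2 difference of -1.17 (SE 0.23, adjusted p = 0.00014). In DRG it averaged 96.2 ± 9.43 in captured neurons and 164 ± 24.2 in whole ganglia (SD, n = 5 each), a log2 difference of -0.70 (SE 0.25, adjusted p = 0.0254). The DRG call was lost without whole DRG sample 070 (adjusted p = 0.0551) or 084 (0.0542), without captured DRG sample 010 (0.0517), with quantile normalization (0.057) and with the mean of the probe sets (0.0913). The 2 changes were not shown to differ (-0.48, SE 0.34, adjusted p = 0.371).

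Nmb was not shown to differ between captured and whole samples. Its log2 difference, captured minus whole, was 0.02 in NG (SE 0.13, adjusted p = 0.922) and 0.18 in DRG (SE 0.14, adjusted p = 0.287), and the ganglion difference was not shown to change with capture (-0.17, SE 0.19, adjusted p = 0.585). Npy had log2 differences of 0.48 in NG (SE 0.40, adjusted p = 0.32) and 0.73 in DRG (SE 0.43, adjusted p = 0.167). Vip, dim in both, was lower in captured than in whole NG on every array, at 7.70 to 21.8 against 22.4 to 56.7, with a log2 difference without the filter of -0.93 (adjusted p = 0.00245). Sst was dim too, above the 40th percentile on 2 of 5 whole DRG arrays and on 0 arrays of the other groups. Without the filter it had a log2 difference of -0.99 in DRG (adjusted p = 0.000772) and 0.30 in NG (adjusted p = 0.256). Its ganglion difference, from these dim signals, changed with capture by 1.28 without the filter (adjusted p = 0.00414). Of 10 glial markers tested, 1 was higher and 7 lower in captured NG, and in DRG 3 were higher and 4 lower. Neuronal markers moved both ways: of 10 tested, 4 were higher and 5 lower in captured NG, and in DRG 3 were higher and 4 lower. Of all genes, 26% were higher and 30.3% lower in captured NG, and 22.9% higher and 25.4% lower in captured DRG. The part of either list in these differences was not tested.

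**Figure D3:**
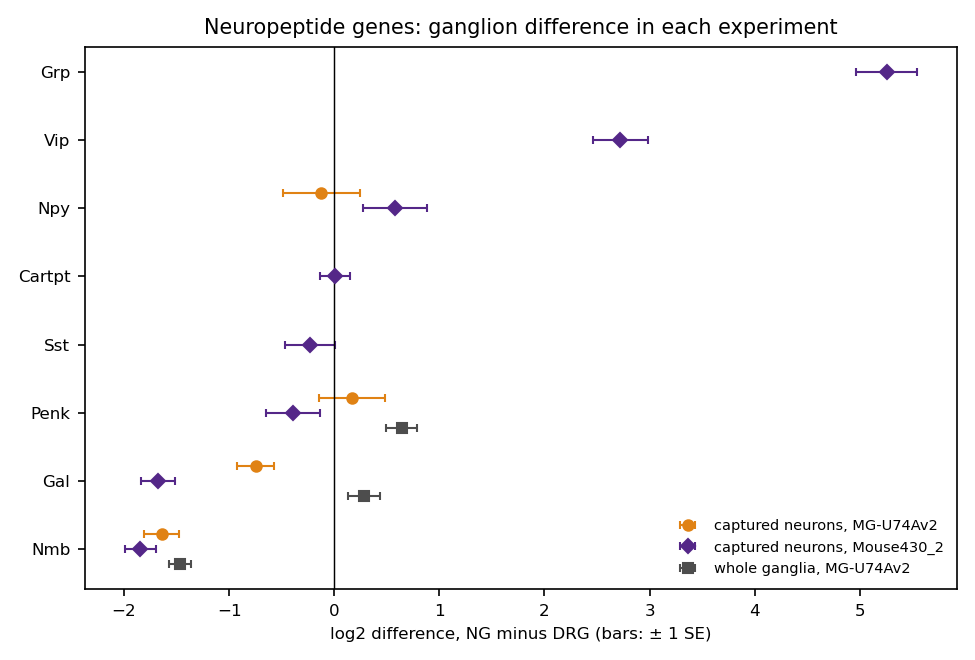
Log2 difference, NG minus DRG, of each neuropeptide gene tested, with bars of 1 SE, for captured neurons on MG-U74Av2, captured neurons on Mouse430_2 and whole ganglia. Grp and Vip lie right of 0 on Mouse430_2, Nmb lies between -1.85 and -1.47 in all 3 experiments, and Gal runs from -1.68 in captured neurons on Mouse430_2 to 0.28 in whole ganglia.

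Of 25 genes for receptors of these peptides, 16 passed the filter on Mouse430_2, and 3 were called higher and 5 lower in captured NG neurons. The median log2 difference was -0.23, beside -0.02 over all genes tested, of which 26.6% were called. Ntsr1, the high-affinity neurotensin receptor, averaged 1301 ± 240.1 in captured NG neurons and 24.1 ± 11.2 in captured DRG neurons (log2 difference 5.42, SE 0.17). The gene of its ligand, Nts, had a median of 5.70 in captured NG neurons and 42.6 in captured DRG neurons, as given above. Both cholecystokinin receptors were higher in NG: Cckar, which carries the satiety action of cholecystokinin, by 1.99 (SE 0.20, adjusted p = 1.56e-08) and Cckbr by 1.58 (SE 0.27, adjusted p = 5.74e-05).

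The 5 receptor genes lower in captured NG neurons were Sstr5 (log2 difference -1.35, SE 0.21) and Sstr2 (-0.60, SE 0.18) for somatostatin, Npy2r (-1.31, SE 0.42) for neuropeptide Y, Ntsr2 (-0.74, SE 0.19) for neurotensin and Galr2 (-0.60, SE 0.19) for galanin. Galr1, the other galanin receptor tested, had a log2 difference of 0.05 (SE 0.23, adjusted p = 0.92). Receptors for the peptides of Grp and Vip were dim or not called. Grpr averaged 40.9 ± 13.4 in captured NG neurons and 53.0 ± 21.6 in captured DRG neurons (adjusted p = 0.315). Vipr1, Vipr2 and Nmbr did not pass the filter, with means of 7.83, 6.74 and 5.96 in captured NG neurons and 8.69, 9.52 and 8.03 in captured DRG neurons.

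On MG-U74Av2 fewer receptor genes were tested. In captured neurons 2 of 9 tested were higher in NG, Ntsr1 (log2 difference 5.15, SE 0.20) and Cckar (1.45, SE 0.23), and 1 was lower, Npy2r (-2.52, SE 0.25, adjusted p = 5.33e-06). The median was 0.09, beside 0.05 over all genes tested, of which 22.9% were called. Whole ganglia had 2 of 8 higher in NG, Ntsr1 (3.91, SE 0.18) and Cckar (2.11, SE 0.12), and 1 lower, Ntsr2 (-0.39, SE 0.15, adjusted p = 0.0468). The median there was 0.13, beside 0.05 over all genes tested, of which 37.5% were called. Npy2r, a receptor that inhibits transmitter release, averaged 2280 ± 959 in whole NG and 1334 ± 308 in whole DRG, which was not called (0.65, adjusted p = 0.145). The ganglion difference of Npy2r on MG-U74Av2 changed between captured and whole samples by -3.17 (SE 0.42, adjusted p = 7.05e-06) by its brighter probe set and by -1.52 (SE 0.53, adjusted p = 0.0464) by its other one.

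Genes that cut, amidate and store peptides moved in both directions. Of 19 tested on Mouse430_2, 4 were higher in captured NG neurons and 5 lower, with a median log2 difference of -0.25, beside -0.02 over all genes, of which 26.6% were called. Pcsk1n, which inhibits the convertase of Pcsk1, was higher by 0.90 (SE 0.17, adjusted p = 0.000336), Pcsk1 itself by 0.67 (SE 0.21, adjusted p = 0.0197) and the convertase Furin by 0.58 (SE 0.18, adjusted p = 0.0172). Lower were Qpct, which forms the pyroglutamate end of some peptides (-1.20, SE 0.24), and the granins Chgb (-0.72, SE 0.15) and Scg2 (-0.71, SE 0.16). In captured neurons on MG-U74Av2, 3 of 13 were higher and 2 lower in NG (median 0.00, beside 0.05; 22.9% of all genes called), and in whole ganglia 8 of 14 were higher and 3 lower (median 0.33, beside 0.05; 37.5% of all genes called). Pcsk1 was higher in NG in all 3 experiments, by 0.67, 0.70 and 1.92, and Chgb was lower in all 3, by -0.72, -1.13 and -0.60, in the order Mouse430_2, captured MG-U74Av2 and whole ganglia.

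**Figure D4:**
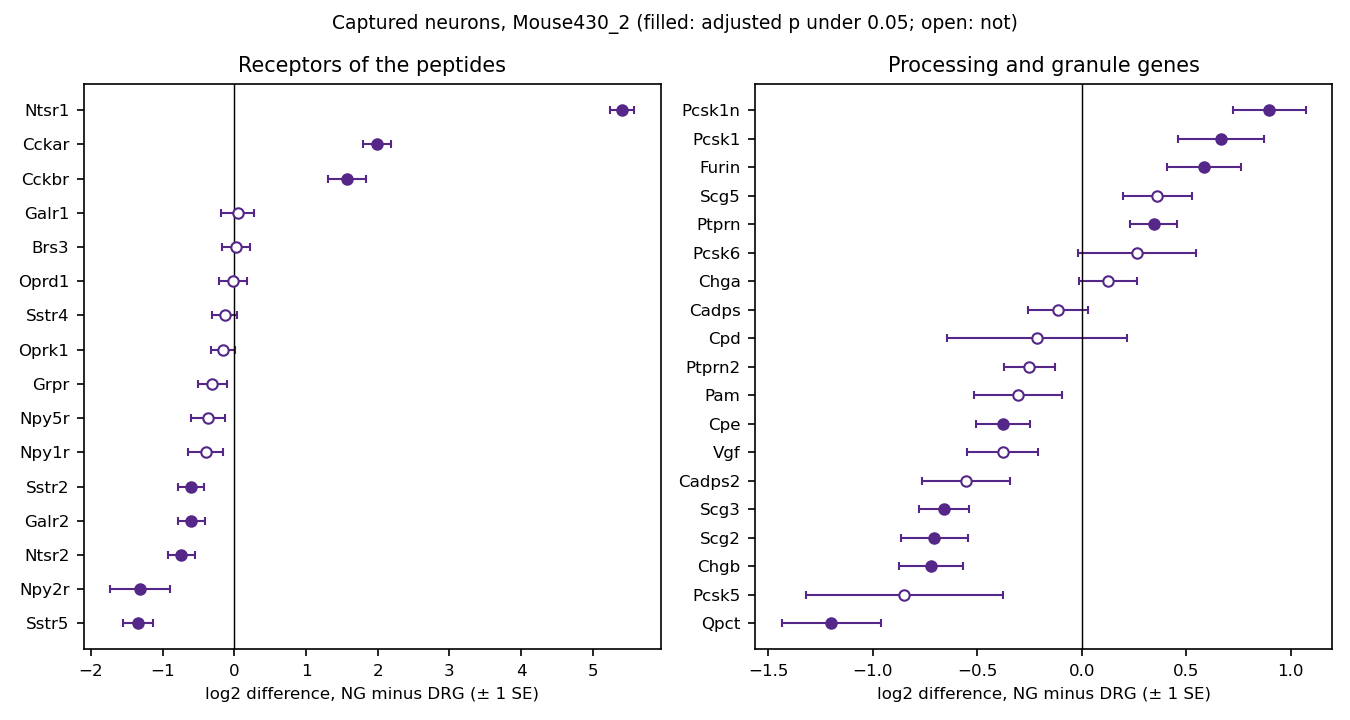
Log2 difference, NG minus DRG, with bars of 1 SE, for the 16 peptide receptor genes and the 19 processing and granule genes tested in captured neurons on Mouse430_2. Filled points passed an adjusted p of 0.05. Ntsr1 stands at 5.42, far right of the other receptors, and processing genes run from -1.20 for Qpct to 0.90 for Pcsk1n.

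Of 16 other peptide precursors tested on Mouse430_2, 0 were higher and 5 lower in captured NG neurons, where 13% and 13.6% of all genes were called higher and lower, and the median was -0.18, beside -0.02 over all genes: Calcb, a calcitonin gene-related peptide (-3.73, SE 0.31), Tac1, the substance P precursor (-2.49, SE 0.31), Adcyap1, the PACAP precursor (-2.12, SE 0.15), Nppb (-1.06, SE 0.17) and Apln (-0.68, SE 0.18). On MG-U74Av2, 1 of 15 was higher and 5 were lower in captured NG neurons (median 0.11, beside 0.05; 22.9% of all genes called), and 1 of 13 was higher and 3 were lower in whole NG (median 0.06, beside 0.05; 37.5% of all genes called).

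Because Gal, Vip and Npy are known to rise in cut sensory neurons, genes of the axotomy response were read beside them. On Mouse430_2, 4 of 14 were higher and 3 lower in captured NG neurons, with a median of 0.00, beside -0.02 over all genes, of which 26.6% were called. Jun, a transcription factor of that response, was lower by -1.79 (SE 0.12), and Flrt3 was higher by 1.17 (SE 0.25). In captured neurons on MG-U74Av2, 2 of 10 were higher and 3 lower (22.9% of all genes called), with Atf3, the injury-induced transcription factor, at 0.60 (SE 0.18, adjusted p = 0.0292) and Jun at -2.78 (SE 0.16). In whole ganglia 4 of 10 were higher and 2 lower in NG (37.5% of all genes called), with Atf3 at 0.73 (SE 0.15) and Gap43, a growth cone protein, at 0.76 (SE 0.09). The list median was -0.28 in captured neurons on MG-U74Av2 and 0.21 in whole ganglia, beside 0.05 over all genes in each. NG minus DRG calls of the list went both ways in each experiment. Captured minus whole, 5 of 11 were higher and 1 lower in DRG (median 0.47, beside 0.0075 over all genes, 48.3% called). In NG 3 were higher and 4 lower (median -0.17, beside -0.0094, 56.3% called). For the difference between these changes, 0 were positive and 4 negative (median -0.41, beside -0.023, 19.3% called). The part of the list in the differences of Vip, Gal and Npy was not tested.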

How the data were processed

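The deposited values are linear signal intensities per probe set that the authors computed with MAS5 (version not given), according to the submitters' processing notes. Every sample description speaks of laser capture, yet for 1 experiment the extraction protocol names whole ganglia, and the protocol was followed. Detection calls were not analysed here.

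Each array was scaled to a common 2% trimmed mean within its array type. Deposited intensities were then taken as log2(signal + pseudocount), the pseudocount being the 20th percentile of an experiment's values (7.48 for Mouse430_2, 11 for captured neurons on MG-U74Av2, 11.7 for whole ganglia, 11.4 for the joint fit). A probe set was tested if above its array's 40th percentile on a number of arrays no smaller than the smaller group. The fit was limma 3.58.1 (lmFit, then robust eBayes with a trend) under R 4.3.3, two-sided, with Benjamini-Hochberg adjustment over all probe sets tested and a threshold of 0.05. Lists were counted by gene, through the probe set with the highest mean log2 signal, which also represents a gene named. The script was tested on simulated data.

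The members and lists were chosen with earlier results of these data known, so counts over them are descriptions. Named are all members, the receptors of members described, up to 3 genes per direction of each other list with the largest called difference, and the 3 genes most like Vip and Grp; Nppb, Apln and Chrna3 on Mouse430_2, Th and Dbh fall outside this rule and were chosen after their values were seen. Gene names come from the platform annotation, promoters from RefSeq GRCm38.p6. Sample numbers recur between ganglia, but no label says what a number marks, so no block was used. Alternatives were other scalings, none included, other pseudocounts, no filter, the mean of a gene's probe sets, eBayes without trend and robust fitting, the replicate block, and each sample left out. The number of arrays limits the precision.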

Additional observations from a re-analysis of the deposited data

Results flagged for a closer look

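Samples of a group were compared with each other for a single value far from the rest, in 38 groups of 4 to 10 samples. Chance gives about 1 in 20 of these, and 3 stood out. Captured NG neurons on Mouse430_2, with 11 samples, were outside this check. Vip in captured NG neurons on MG-U74Av2 was 21.8 in sample 010, while the other 4 lay between 7.70 and 10.9. Gal in captured DRG neurons on MG-U74Av2 was 319 in sample 010, while the other 4 lay between 498 and 535; this is the array that overlapped with NG. Grp in captured DRG neurons on Mouse430_2 was 18.9 in sample 008, while the other 8 lay between 3.34 and 7.35, all far below the lowest NG value of 135.

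The change of Gal from whole to captured samples differed between the ganglia by -1.03 on the log2 scale (adjusted p = 0.00303, limma interaction). Gal averaged 477 in captured and 199.6 in whole DRG, and 279 in captured and 249.8 in whole NG. The second Gal probe set, dimmer, gave -0.48 (adjusted p = 0.332).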

How the results depend on the processing

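The NG minus DRG calls of Grp, Vip, Nmb and Gal on Mouse430_2, and of Nmb in both MG-U74Av2 experiments, kept direction and threshold under every alternative run, each left-out sample included. Without scaling, calls numbered 1089 on captured MG-U74Av2 (1652 as reported), 4157 on Mouse430_2 (6250) and 662 for the difference of ganglion differences (1512). With the replicate block on shared sample numbers there were 1059 and 4003, against 1196 and 4240 in the same samples without it, a fit added after seeing the data; Gal on captured MG-U74Av2 was then -0.64 (adjusted p = 0.0751 with the block, 0.0474 without), and the block ended no other member's call. Deviations of same-numbered captured samples correlated at -0.106 to 0.111 over 4 pairs on MG-U74Av2 and -0.154 to 0.155 over 7 on Mouse430_2. In 1 of 4 and 1 of 7 pairs the NG sample correlated best with its own number. So few pairs cannot settle whether a number marks an animal or batch. Whole ganglia share too few numbers for a block. The split of higher and lower calls moved with scaling: in whole ganglia 1508 and 1219 became 1020 and 1532 with a common median and 227 and 1685 unscaled (median of all probe sets 0.05, then -0.05 and -0.29), and on Mouse430_2 2733 and 3517 became 3845 and 2210 or 1016 and 3141, that median being -0.05, then 0.09 or -0.17. Captured MG-U74Av2 had 792 and 860, or 386 and 703 unscaled. Captured minus whole had 2175 and 2424 in NG (3008 and 1929 with a common median), 1903 and 2017 in DRG (508 and 2323 unscaled), and 641 and 871 for the ganglion term (927 and 620 with a common median, 459 and 203 unscaled).

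Signs turned only for uncalled differences. Unscaled, Gal in whole ganglia was -0.072, Cartpt -0.13 (-0.032 with quantile normalization), Nmb captured minus whole in DRG -0.11 and its ganglion term 0.12. Npy on captured MG-U74Av2 was 0.0022 in the shared samples with or without the block. Sst on Mouse430_2 was 0.29 without the recurring numbers. With 1 sample left out in turn, captured MG-U74Av2 gave -0.48 to 0.093 for Npy and -0.11 to 0.37 for Penk, Cartpt ran from -0.057 to 0.091, Nmb captured minus whole in NG from -0.072 to 0.097, and the Npy ganglion term from -0.61 to 0.0094. The cause was not tested. Dim signals limit Vip, Sst and Cck on MG-U74Av2 and, on Mouse430_2, Cck, Nts in NG and Grp in DRG.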
